A study of Homo sapiens with 3 samples.

Results

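Among the HT29 cells of the co-culture, a minority carried transcripts of a lipocalin, LCN15, of the trypsinogens PRSS1 and PRSS2, and of the stress-response regulator NUPR1. HT29 is a human colorectal adenocarcinoma line that can form goblet-like, mucus-secreting cells, and Caco-2 is a second such line that forms enterocyte-like monolayers. Both lines were grown together on the permeable membrane of a Transwell insert, seeded at 9 Caco-2 cells to 1 HT29 cell (passages 8 and 13), and were harvested by trypsin on day 23. Single-cell 3′ RNA sequencing gave 2 libraries from untreated cultures (control 1 and control 2) and 1 library from a culture given 1 ng/ml Escherichia coli O111:B4 lipopolysaccharide (LPS) on the apical side on day 22 for 24 hours. As both lines are carcinoma lines and the cells were thawed before capture, with dead cells removed from samples of low viability, the data describe these lines and not normal epithelium. Per the methods, as many Transwells as libraries were prepared, from the same passages of both lines. The study's results speak of 2 Transwells, and nothing says whether the Transwells were seeded independently. The p-values therefore speak for these 3 libraries only, with the spread estimated partly over all tested genes. The single LPS library cannot be told apart from its treatment.

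The cells described here, called members below, were chosen by measured values. A barcode was kept if it had at least 1500 UMIs (unique molecular identifiers, 1 per captured transcript), at least 700 genes and at most 20% mitochondrial UMIs. It was taken as an HT29 cell if at least 0.1% of its UMIs lay on LYZ, KRT20, LCN2, CD24, CD44, CST6, TCN1 and BMP4 together, under 0.5% on the Caco-2 apolipoprotein genes APOA1 and APOC3, and it had fewer than 5 UMIs of the goblet genes MUC2 and FCGBP. Within each library, the 15% of these HT29 cells with the highest share of UMIs on LCN15, NUPR1, PRSS1 and PRSS2 together were the members. This gave 382 members of 2546 HT29 cells and of 15560 kept cells, with 105 of 700 HT29 cells in control 1, 150 of 1000 in control 2 and 127 of 846 in LPS 1. The remaining 2164 HT29 cells are called the rest.

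Lipocalins are small secreted proteins that carry hydrophobic molecules, and LCN15 is a member of the family found in the gut. Trypsinogens are the inactive forms of trypsin. PRSS1 and PRSS2 encode the main ones of the exocrine pancreas, and PRSS2 is also made by Paneth cells, the antimicrobial secretory cells of the small intestinal crypt. NUPR1 is a small nuclear protein induced by starvation, endoplasmic reticulum stress and other insults, largely through the transcription factor ATF4. CA9, carbonic anhydrase IX, is a surface enzyme whose gene is switched on by low oxygen.

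LCN15 (ENSG00000177984) lies on the minus strand at chr9:136759634-136766255, NUPR1 (ENSG00000176046) on the minus strand at chr16:28532708-28539008 and CA9 (ENSG00000107159) on the plus strand at chr9:35673928-35681159, in GRCh38 with the GENCODE v44 annotation. PRSS1 (ENSG00000204983) at chr7:142749468-142753072 and PRSS2 (ENSG00000275896) at chr7:142760398-142774564 are neighbours on the plus strand. Their canonical transcripts, each 809 bases long, were identical at 92.7% of aligned bases, and the last 300 bases, where 3′ reads start, at 93.0%, with no identical run longer than 34 bases. Reads of one could in part have been assigned to the other, so the split between PRSS1 and PRSS2 is less certain than their sum.

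The 250 bases before the start of each gene are shown because PRSS1 and PRSS2 were found in the same cells, often with LCN15. CA9 is included because it was picked as a marker of the members, although 39.6% to 46.0% of the rest also held a CA9 UMI. The stretches come from RefSeq (GRCh38.p14), in which 4 of these 5 genes were matched, NUPR1 not. The RefSeq starts of LCN15 and PRSS2 lie inside the GENCODE spans above. Capitals mark matches, on either strand, of 3 short motifs: ACGTG, the core of the hypoxia response element; CACCTG, an E-box of the kind bound by the pancreatic factor PTF1; and TTTCCC, the second part of a PTF1 site.
LCN15, chr9:136764519-136764768, minus strand: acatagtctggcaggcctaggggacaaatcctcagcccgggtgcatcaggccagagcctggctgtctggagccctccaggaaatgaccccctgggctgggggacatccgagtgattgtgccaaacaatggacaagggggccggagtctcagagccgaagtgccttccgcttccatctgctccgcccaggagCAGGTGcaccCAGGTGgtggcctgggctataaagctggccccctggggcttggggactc
PRSS1, chr7:142749222-142749471, plus strand: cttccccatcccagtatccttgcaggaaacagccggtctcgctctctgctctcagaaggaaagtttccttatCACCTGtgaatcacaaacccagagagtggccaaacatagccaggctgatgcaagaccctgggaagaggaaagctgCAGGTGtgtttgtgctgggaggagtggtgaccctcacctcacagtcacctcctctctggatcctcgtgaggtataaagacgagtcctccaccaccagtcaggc
PRSS2, chr7:142770720-142770969, plus strand: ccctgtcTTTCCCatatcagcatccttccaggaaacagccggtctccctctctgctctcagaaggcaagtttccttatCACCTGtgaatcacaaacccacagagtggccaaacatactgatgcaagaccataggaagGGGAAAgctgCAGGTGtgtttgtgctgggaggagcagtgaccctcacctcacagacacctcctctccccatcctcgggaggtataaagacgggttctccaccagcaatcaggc
CA9, chr9:35673678-35673927, plus strand: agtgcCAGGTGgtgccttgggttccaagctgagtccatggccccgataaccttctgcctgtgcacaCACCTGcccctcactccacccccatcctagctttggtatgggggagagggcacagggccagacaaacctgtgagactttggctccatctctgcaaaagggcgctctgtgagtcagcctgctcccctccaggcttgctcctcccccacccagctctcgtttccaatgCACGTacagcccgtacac
The 2 trypsinogen promoters were identical at 86.7% of aligned bases, against 47.8% and 48.1% for each with the LCN15 promoter. CACCTG occurred in all 4 promoters and in 17.5% of the 35116 promoters of the same length, TTTCCC in PRSS2 only and in 23.3% of all, and ACGTG in CA9 only, 18 to 14 bases before the start, and in 18.5% of all. A match of letters is a description and not a binding site.

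Depth and quality were alike between members and rest except for mitochondrial transcripts. The 3 libraries held 5811, 6495 and 6838 barcodes with 24185467 to 33893707 UMIs, of which 5093, 5307 and 5160 barcodes were kept. Median UMIs per cell were 5104 in members and 5274 in the rest of control 1, 3669 and 3790 in control 2, and 3778 and 3696 in LPS 1. The median mitochondrial share was lower in members of every library, at 1.97% against 3.30%, 1.92% against 3.12%, and 2.87% against 3.82%. What part this had in the results was not tested. Between 5 and 8 kept barcodes were shared by any pair of libraries, and no member's.

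The share of UMIs on the 4 ranking genes fell off smoothly, with no gap at the cutoff. Just inside it, the lowest member had 0.0650% of its UMIs on these genes in control 1, 0.0779% in control 2 and 0.0703% in LPS 1. Just outside, the highest of the rest had 0.0630%, 0.0775% and 0.0693%. A member near the cutoff held as few as 2 UMIs of the 4 genes, while the median member held 10, 10 and 8. In the rest, 19.2%, 20.6% and 20.3% of cells had at least 1 UMI of these genes.

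**Figure D1:**
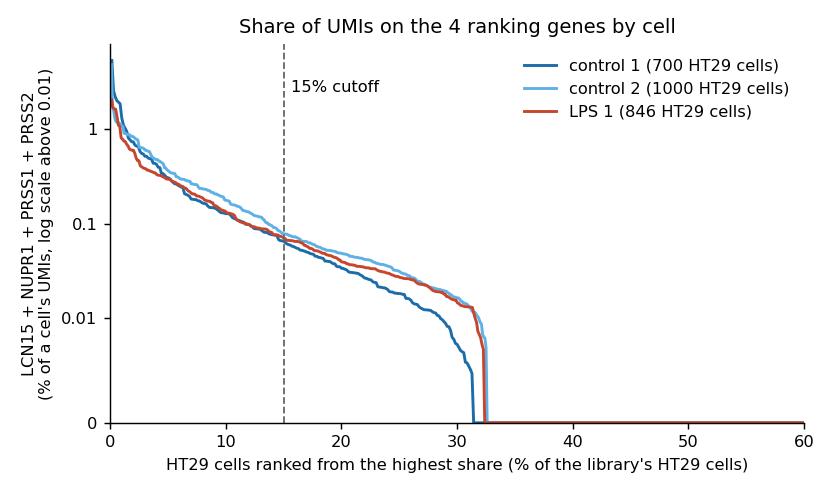
Each line gives the share of UMIs on LCN15, NUPR1, PRSS1 and PRSS2 together (vertical axis, % of a cell's UMIs, log scale above 0.01) for the HT29 cells of 1 library ranked from the highest (horizontal axis, % of cells, shown to 60). The dashed line is the 15% cutoff; the curves pass it at 0.0650% to 0.0779% without a step.

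The levels of the ranking genes, which chose the cells and are given as a description only, differed widely between libraries for NUPR1 and the trypsinogens. LCN15 was at 1083, 841 and 1237 CPM (UMIs of the gene scaled to a common total, over the summed UMIs of the population) in the members of control 1, control 2 and LPS 1, and at 19.2 to 27.6 CPM in the rest. Of the 4 genes it had the smallest spread between libraries relative to its mean. NUPR1 was at 596, 2061 and 751 CPM in members and 20.3, 47.9 and 33.2 CPM in the rest, so control 2 stood apart. PRSS1 was at 574, 314 and 276 CPM in members, and PRSS2 at 1248, 586 and 626 CPM, against 5.52 to 9.85 CPM of either in the rest. Control 1 had the highest trypsinogen level. The trypsinogen transcripts were concentrated in few cells. The 5 cells with the most PRSS1 UMIs held 57.8% to 62.9% of a library's member total, the 5 with the most PRSS2 UMIs held 45.9%, 48.3% and 54.7%, and the most abundant single cell had 95 PRSS2 UMIs, in control 1.

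Of the members, 61.0%, 48% and 58.3% had at least 1 LCN15 UMI, 40%, 68% and 47.2% a NUPR1 UMI and 37.1%, 27.3% and 29.1% a PRSS2 UMI. In Caco-2-like cells (kept cells below the HT29 gate), which serve here as the background for free RNA, LCN15 UMIs were seen in 1.35%, 1.49% and 1.61% of cells, NUPR1 in 0.676% to 1.90% and PRSS2 in 2.67% to 4.38%. Their median depth was 5488, 4272 and 3647 UMIs, close to that of the members. With every cell thinned to 1500 UMIs, LCN15 was still seen in 48.6%, 38.7% and 48.8% of members and in at most 0.686% of Caco-2-like cells. In the rest, PRSS1 UMIs were seen in 3.53%, 2.47% and 1.81% of cells, against 5.60%, 5.29% and 3.83% of Caco-2-like cells, and PRSS2 UMIs in 2.86%, 2% and 3.48% against 4.38%, 3.87% and 2.67%. Caco-2-like cells do not all lack trypsinogen, as 1 of them held 180 PRSS2 UMIs, so they bound the free RNA of these genes only from above.

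The gate genes also belong to the rule and are given as means over the 3 libraries, with no test. LYZ, the antibacterial enzyme lysozyme, was at 1586 ± 208 CPM (SD, n = 3) in members and 1228 ± 38.0 CPM in the rest, and the growth factor BMP4 at 386 ± 6.69 against 281 ± 12.2 CPM. CST6, a cysteine protease inhibitor, was at 4.04 ± 2.84 against 52.1 ± 22.1 CPM and LCN2, the other lipocalin of the rule, at 153 ± 37.1 against 202 ± 40.6 CPM. KRT20 was at 470 against 549 CPM, CD24 at 639 against 617, CD44 at 238 against 235 and TCN1 at 34.0 against 54.7. The limited genes were at 246 against 405 CPM for APOA1, 120 against 202 for APOC3, 4.52 against 2.03 for MUC2 and 11.4 against 7.26 for FCGBP.

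**Figure D2:**
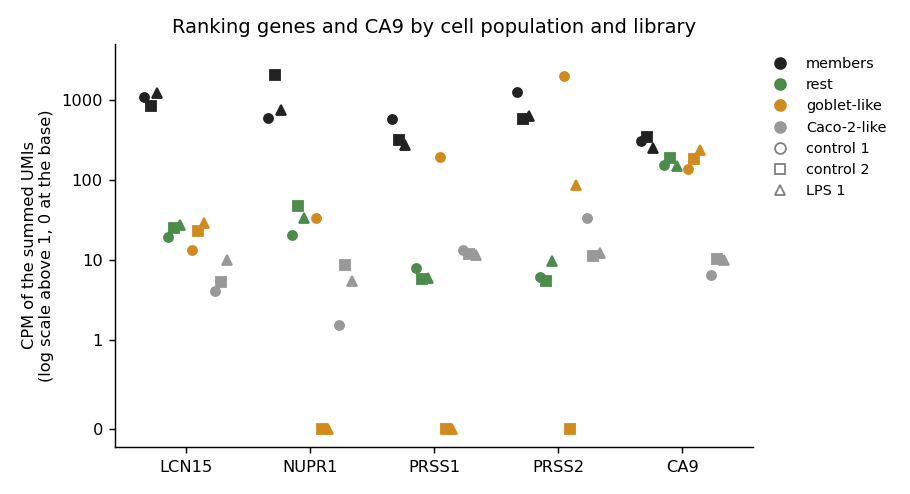
CPM of the 4 ranking genes and CA9 (vertical axis, log scale above 1) in members, rest, goblet-like and Caco-2-like cells, 1 symbol per library. The ranking genes are high in members because they chose them; goblet-like cells of control 1 were also high in PRSS2, at 2013 CPM, with 304 UMIs in 6 of 18 cells, 186 of them in 1 cell.

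Few members had UMIs of all 4 genes. At this depth a gene without a UMI in a cell is not shown to be unexpressed, so the numbers below count detected transcripts. Of the 382 members, 202 (52.9%) had UMIs of 1 ranking gene only, 110 had 2, 61 had 3 and 9 had all 4. NUPR1 was the only one of the 4 in 116 members and LCN15 the only one in 74, while PRSS1 alone was seen in 1 and PRSS2 alone in 11. By detected UMIs, 178 members had LCN15 or trypsinogen and no NUPR1, 116 had NUPR1 and none of the others, and 88 had both. The NUPR1-only cells made up 22.9% of members in control 1, 37.3% in control 2 and 28.3% in LPS 1.

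**Figure D3:**
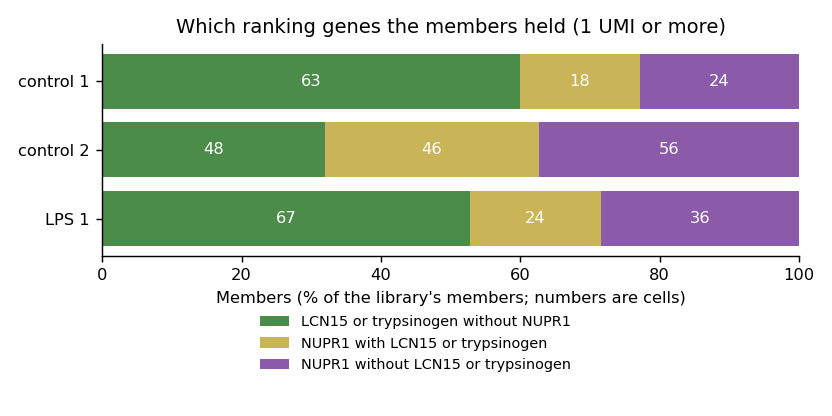
Horizontal bars give the members of each library (% of members, cell numbers inside) that held LCN15 or trypsinogen without NUPR1, NUPR1 with either, or NUPR1 alone. Cells with NUPR1 and neither of the others number 24, 56 and 36.

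Over all HT29 cells of a library, the Spearman correlation of UMI shares was 0.42 to 0.49 between PRSS1 and PRSS2, 0.21 to 0.30 between LCN15 and either trypsinogen, and -0.02 to 0.12 between NUPR1 and any other gene. These are descriptions over 700 to 1000 cells that share a library and its depth. When cells were instead chosen by 1 gene at a time, as the top 15% by LCN15, by NUPR1 or by PRSS1 plus PRSS2 (cells without a UMI never chosen), 34.3%, 33.3% and 25% of the LCN15 cells were also trypsinogen cells, where trypsinogen cells made up 12.3%, 9.30% and 9.57% of all HT29 cells. Of the trypsinogen cells, 41.9%, 44.1% and 38.3% were LCN15 cells, which were 15%, 12.3% and 14.7% of all. For NUPR1 cells, the share that were LCN15 cells was 19.8%, 20% and 18.1%.

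Whether each gene followed the others was tested by leaving it out of the choice of cells, so that its own level played no part. LCN15 and the trypsinogens rose in cells chosen without them, whereas NUPR1 did not pass the test. LCN15 was at 502, 351 and 443 CPM in cells chosen by the other 3 genes and at 116, 105 and 174 CPM in their rest. It was higher in all 3 libraries, by 1.78 ± 0.11 on the log2 scale (SE, adjusted p = 2.4e-13, edgeR), where 2.2% of 9982 tested genes were called higher.

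With both trypsinogens left out of the choice, PRSS1 was at 364, 257 and 96.9 CPM against 43.4, 14.3 and 38.7 CPM, and PRSS2 at 864, 388 and 350 CPM against 70.6, 36.4 and 60.4 CPM. Both were higher in all 3 libraries, by 2.96 ± 0.23 (adjusted p = 2.0e-11) and 3.27 ± 0.13 (adjusted p = 5.1e-19), where 2.42% of 9887 genes were called higher. With only PRSS1 or only PRSS2 left out, and the neighbouring copy still in the choice, the differences were 5.15 ± 0.14 and 4.64 ± 0.15, where 2.57% and 2.53% of genes were called higher. Reads of one copy could in part have been assigned to the other, so these last differences are not independent of the choice of cells.

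NUPR1 went in opposite directions in the libraries. In cells chosen by the other 3 genes it was at 72.5 CPM against 108 in control 1, 679 against 267 in control 2, and 81.0 against 156 in LPS 1. The difference was 0.43 ± 0.25 (adjusted p = 0.36), where 4.52% of 10001 genes were called higher. Without control 2 it was -0.75 with an adjusted p of 0.00026, and without control 1 it was 0.72 with an adjusted p of 7.0e-05, so control 2 decided its sign. Under 5 other settings with all 3 libraries it passed, at 0.36 to 0.86, and DESeq2 gave -0.029. In cells chosen without them, LCN15, PRSS1 and PRSS2 were thus higher in all 3 libraries, and NUPR1 was higher in control 2 only.

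Compared with the rest of the HT29 cells over the other genes, members were higher in OR51E1, TRABD2A, RGMB and IGFBP2, among others, and lower in most tested squamous-type genes. UMIs were summed per library and population and tested with library as a block, with the 16 genes of the rule left out. Of 9877 genes tested, 281 (2.84%) were higher and 270 (2.73%) lower at an adjusted p under 0.05. Counts depended on the method: DESeq2 called 96 and 69, and with any 1 library left out edgeR called 148 to 175 and 117 to 180.

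The rise was largest, among genes at a mean of 20 CPM or more in members, for OR51E1. OR51E1, an odorant receptor also found outside the nose, was at 66.6, 24.3 and 32.3 CPM in the members of control 1, control 2 and LPS 1 and at 6.95, 2.63 and 4.27 CPM in the rest. The difference was 3.16 ± 0.28 (adjusted p = 9.7e-10). TRABD2A, a membrane protease that cleaves Wnt ligands, was at 31.6, 29.1 and 39.4 CPM against 5.56, 4.47 and 7.22 CPM, a difference of 2.56 ± 0.29 (adjusted p = 8.2e-08). RGMB, a co-receptor for bone morphogenetic proteins, was at 46.6, 21.0 and 41.2 CPM against 9.73, 5.26 and 9.20 CPM, a difference of 2.18 ± 0.26 (adjusted p = 2.6e-07). These were low transcripts, with a UMI in 10 to 20 members of each library.

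IGFBP2, a secreted binding protein for insulin-like growth factors, was the most abundant of the 15 genes with the largest rises. It stood at 383, 227 and 373 CPM in members and 93.7, 109 and 99.2 CPM in the rest, with a UMI in 51, 66 and 56 members, and was higher by 1.72 ± 0.12 (adjusted p = 6.8e-12). GABRA2, a subunit of the GABA-A receptor, rose by 1.68 ± 0.18, and PPP1R1B, the phosphatase inhibitor DARPP-32, by 1.68 ± 0.20. EGFL7, a secreted protein best known from endothelium, rose by 1.41 ± 0.16, CXCR4, the receptor of the chemokine CXCL12, by 1.83 ± 0.28, and KCTD12, an auxiliary subunit of GABA-B receptors, by 1.80 ± 0.28. In CXCR4 the libraries differed: control 2 had 8.09 CPM in members against 5.79 in the rest, and LPS 1 had 46.6 against 9.52. For KCTD12, 1 member held 16 of the 34 UMIs in LPS 1. The KCTD12 call was lost with every cell thinned to 1500 UMIs.

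Weaker rises were seen in PTP4A3, a protein tyrosine phosphatase (1.25 ± 0.25), PHKA2, a subunit of phosphorylase kinase (1.54 ± 0.30), EPHB3, an ephrin receptor of the crypt (1.46 ± 0.28), AUTS2 (1.34 ± 0.27) and IHH, the hedgehog ligand of the gut epithelium (1.29 ± 0.25). EPHB3, AUTS2 and IHH did not pass without LPS 1, with differences of 0.96, 1.16 and 0.93 and adjusted p-values of 0.20, 0.075 and 0.066, and PHKA2 did not pass without control 2 (1.45, adjusted p = 0.060). IFIT2, an interferon-induced gene, was also in this group at 1.49 ± 0.33, but in control 1 it came from 1 member with 18 UMIs and it did not pass without control 1 or without control 2 (adjusted p = 0.060 and 0.17).

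**Figure D4:**
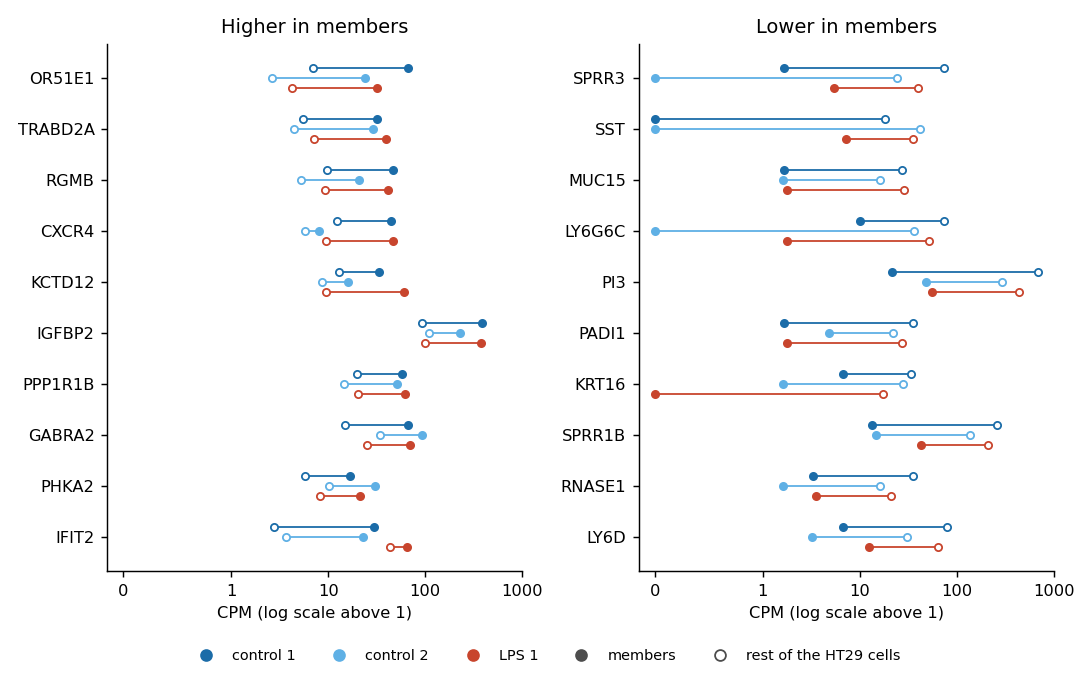
CPM (horizontal axes, log scale above 1) of the 10 genes with the largest rise (left) and the 10 with the largest fall (right) in members, 1 line per library joining members (filled) and rest (open). The members of each library lie on the same side of its rest for every gene shown, by the rule that picked them.

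Of the 15 largest falls, 5 were in the list of genes typical of squamous epithelium, the type that lines skin and oesophagus. SPRR1B, a cornified envelope protein, was at 13.3, 14.6 and 43.0 CPM in members and 263, 139 and 209 CPM in the rest, a fall that passed the test (adjusted p = 1.1e-12). PI3, the elastase inhibitor elafin, was at 21.6, 48.5 and 55.6 CPM against 683, 291 and 438 CPM, and fell by 3.42 ± 0.19 (adjusted p = 2.5e-14). SPRR3, a second cornified envelope protein, fell by 4.30 ± 0.43, KRT16, a keratin, by 3.19 ± 0.45 and LY6D, a surface protein of squamous cells, by 2.94 ± 0.29.

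Further falls were in LY6G6C (-3.73 ± 0.37), PADI1, an enzyme that turns arginine into citrulline (-3.26 ± 0.44), the membrane mucin MUC15 (-3.75 ± 0.49), RNASE1, a secreted ribonuclease (-3.05 ± 0.44), ADIRF (-2.70 ± 0.35), SMIM5 (-2.49 ± 0.37) and SPTSSB, a subunit of the enzyme that starts sphingolipid synthesis (-2.47 ± 0.25). MUC15 had a UMI in 1 member of each library and in 38 to 58 cells of the rest. DKK1, a secreted Wnt inhibitor, was lower by 2.57 ± 0.39, but 1 cell held 44 of its 97 UMIs in the rest of control 2. DKK1 was not called with the top 25%, with split UMIs, with APOA1 plus APOC3 under 0.1% or with cycling cells left out. SST, the hormone somatostatin, was lower by 3.75 ± 0.48, but its counts in the rest came from 3 to 4 cells per library, the highest with 131 UMIs.

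Of the gene lists, squamous-type genes showed the most uniform difference. Of 22 listed, 10 passed the filter on low counts. Of those, 8 were lower and 0 higher, with a median of -3.02, against a median of 0.00 over all genes tested. SERPINB3, a protease inhibitor of squamous cells, had no UMI in the 1776707 UMIs of the members and 154 in the rest, at least 8.73-fold lower against a floor of 3 UMIs over the members. DESeq2 called 3 of the 10 lower and 0 higher. Setting SERPINB3 at its bound left the median at -3.02.

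The list of the study's undifferentiated HT29 genes was chosen by the study on these samples and is not independent evidence of a direction. Of its 25 genes, 14 were lower and 1, NDUFA4L2, was higher, with a median of -0.67, and 7 were lower with DESeq2. KLK10, a secreted protease, was at 19.7 to 25.9 CPM against 82.1 to 103 CPM and fell by 2.07 ± 0.20. The water channel AQP5 fell by 1.90 ± 0.42, and the receptor ADGRF1 by 1.88 ± 0.29, with C6orf15 at -2.04 ± 0.51. Of 5 tested kallikreins, KLK10 and KLK11 were lower and KLK12 was higher (0.96 ± 0.22). KLK12 UMIs came from 7, 6 and 7 members, and its call was lost with DESeq2, with no block, without control 1 and with cycling cells left out, and also with thinned cells, with members taken as the top 10% per library and with members ranked on thinned counts or by mean rank.

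Hypoxia and glycolysis genes were higher in 10 of 32 and lower in 1, with a median of 0.20. DESeq2 called 6 higher, and 3 were called with no block and 6 without control 2. One of the 10 was CA9, which was picked as a marker of these cells with results known and is a description only. It was at 306, 343 and 249 CPM in members and 154, 188 and 148 CPM in the rest, with a UMI in 70.5%, 66.7% and 56.7% of members and 45.4%, 46.0% and 39.6% of the rest. CA12, a related carbonic anhydrase, rose by 0.78 ± 0.14, and NDRG1, a hypoxia-induced growth regulator, was at 1133, 2526 and 1510 CPM against 808, 1494 and 1049 CPM and rose by 0.63 ± 0.07. The glucose transporter SLC2A3 fell by 1.05 ± 0.21, with 51.8 CPM against 137 in control 2 and 125 against 146 in LPS 1, and was not called with DESeq2, with no block, with thinned cells, with split UMIs or without control 2.

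Among pancreatic-type enzymes and inhibitors, only 4 of 30 genes could be tested. SPINK1, the trypsin inhibitor of the pancreas, was at 221, 379 and 237 CPM against 153, 223 and 185 CPM and rose by 0.61 ± 0.10 (adjusted p = 0.00012). SERPINA1, which encodes alpha-1 antitrypsin, an inhibitor of neutrophil elastase, rose by 0.39 ± 0.08. Neither was called with no library block. Most other digestive enzymes of the acinar cell had no UMI in members. Colipase (CLPS), too low to be tested, had 0 UMIs in members and 105, 96 and 1 in the rest of control 1, control 2 and LPS 1. The rest held 10442415 UMIs in all against the members' 1776707. CTRB1, CTRB2, CTRC, CPA1, PNLIP and AMY2A had 0 in both populations. Enteropeptidase (TMPRSS15), which activates trypsinogen, also had 0 UMIs in both, which over the members allows up to 1.69 CPM. Of the 18 listed lipocalins, LCN15 and LCN2 belong to the rule, 2 others (APOM and RBP4) were tested and neither was called (median -0.19).

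Goblet cell genes were mixed, with 4 of 20 higher, 1 lower and a median of -0.19, and 2 were higher with DESeq2, with no block or without control 1. TFF3, the trefoil peptide secreted with mucus, was at 1235, 982 and 1052 CPM against 378, 606 and 452 CPM and rose by 1.24 ± 0.10 (adjusted p = 5.5e-11). MUC5B rose by 0.97 ± 0.28, while WFDC2, a secreted protease inhibitor, was at 403, 330 and 280 CPM against 1077, 557 and 548 CPM and fell by 1.03 ± 0.10. The summed level of 7 goblet markers was 1071 to 1331 CPM in members and 493 to 747 CPM in the rest, mostly TFF3, with CLCA1 at 0, against 15506 to 19358 CPM in goblet-like cells. In Caco-2-like cells the same markers summed to 1242, 1019 and 850 CPM, with TFF3 at 1218, 961 and 806 CPM and a TFF3 UMI in 76.2%, 67.6% and 62.4% of cells, so the members' TFF3 level was close to that of Caco-2-like cells in both controls. Their part in the result was not tested. The defining Paneth cell markers DEFA5, DEFA6, ITLN2 and REG3A had 0 UMIs in the members of all 3 libraries. In the rest they summed to only 1.11, 0.526 and 0.328 CPM, so their absence did not set the members apart. Of 4 tested Paneth list genes, EPHB3 was higher and MMP7 lower (median -0.19), neither with DESeq2.

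Of the enteroendocrine list, 4 genes were tested and 2, SST and PCSK1N, were lower (median -1.24), with 0 called by DESeq2 and a median of 0.52 without control 1. CHGA, CHGB and NEUROD1 had 0 UMIs in members, and NEUROD1 had 0 in the rest too. CHGA had 0, 14 and 0 UMIs and CHGB 4, 7 and 0 in the rest, which held 10442415 UMIs against the members' 1776707. Other untested genes of the list went both ways. SCG2 had 3, 10 and 11 UMIs in members against 15, 14 and 5 in the rest. CPE had 0, 0 and 3 UMIs against 47, 47 and 3. The 5 enteroendocrine markers summed to 30.0, 3.24 and 3.59 CPM in members against 26.1, 30.5 and 3.61 CPM in the rest, the first from 15 PAX4 and 3 INSM1 UMIs. The Caco-2 enterocyte list had 1 of 11 genes higher and 3 lower (median -0.63), against 0 and 1 with DESeq2. ALB fell by 2.36 ± 0.50, AFP by 2.11 ± 0.36 and APOA4 by 1.91 ± 0.23, whereas the fatty acid binding protein FABP1 rose by 1.05 ± 0.14. The summed level of 6 enterocyte-like Caco-2 markers was 330, 367 and 468 CPM in members and 662, 686 and 723 CPM in the rest, against 8549 CPM or more in Caco-2-like cells. APOA1 and APOC3 of this sum were limited by the gate. Mature colonocyte genes were higher in 2 of 12 and lower in 3 (median -0.35), with FABP1 and LGALS4 higher and CEACAM7 (-1.02 ± 0.15), PHGR1 and TSPAN1 lower. DESeq2 called 0 higher and 1 lower.

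ATF4 and amino acid response genes were higher in 3 of 26 (median 0.22), led by the cytokine GDF15 at 305, 328 and 253 CPM against 160, 188 and 153 CPM (0.86 ± 0.10), against 1 of 26 with DESeq2, with no block or without control 1. Endoplasmic reticulum folding genes were higher in 4 of 24 (median 0.21), with SEC11C at 0.75 ± 0.16, against 0 of 24 with DESeq2 or with no library block and 1 of 24 without control 2 (median 0.096). Dissociation and heat shock genes were lower in 6 of 17 and higher in 1 (median -0.21), with HSPH1 at -0.64 ± 0.11. With DESeq2, with no block or without control 1, 1 was lower and 0 were higher. Interferon-stimulated genes were lower in 6 of 15 and higher in 2 (median -0.48). With DESeq2, 2 were lower and 0 higher, with no block 1 and 0, without control 1, 2 and 0, without control 2, 8 and 0, and without LPS 1, 3 and 3. IFI27 was at 419, 730 and 798 CPM against 1057, 1128 and 1473 CPM and fell by 0.90 ± 0.09.

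The remaining lists held few calls. Cholesterol and fatty acid synthesis genes were lower in 4 of 18 (median -0.17), with the desaturase SCD at 1796, 2317 and 2429 CPM against 2677, 3771 and 3590 CPM (-0.58 ± 0.05), against 2 of 18 with DESeq2, with no block or without control 1. Wnt, notch and stem genes were higher in 1 of 10 (PROM1, 1.16 ± 0.22, median 0.27), antioxidant and p53 genes in 1 of 14 (HMOX1, 1.16 ± 0.34, median -0.11) and proliferation genes in 1 of 22 (TUBB, 0.43 ± 0.09, median 0.11). PROM1 was not called with DESeq2 or without control 1, HMOX1 with DESeq2, with no block, without control 1 or without control 2, and TUBB with no block or without LPS 1. With members taken as the top 10% per library none of these lists held a higher gene, and PROM1 and HMOX1 were also not called when every cell was thinned to 1500 UMIs. NF-kB targets had 0 calls of 11 by edgeR and by DESeq2 (median -0.40).

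The cells chosen by LCN15, by the trypsinogens or by NUPR1 alone were each compared with their own rest. Most tested squamous-type genes were lower in all 3 sets, and the counts for proliferation, interferon and ATF4 genes are given for each set. The 3 comparisons share libraries and cells, and the differences between them were not tested. Cells chosen by LCN15 had 438 genes higher (4.41%) and 446 lower (4.49%) of 9938. Cells chosen by PRSS1 plus PRSS2 had 426 higher (4.27%) and 473 lower (4.74%) of 9988. Cells chosen by NUPR1 had 168 higher (1.7%) and 68 lower (0.69%) of 9858.

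In the LCN15 cells, all 10 tested squamous-type genes were lower (median -3.11), in the trypsinogen cells 9 of 10 (median -2.38) and in the NUPR1 cells 7 of 10 (median -2.14). The undifferentiated HT29 list, of the study's own choice, was lower in 16, 18 and 2 of 25 genes. Interferon-stimulated genes were lower in 12 of 15 in LCN15 cells (median -0.91) and in 13 of 15 in trypsinogen cells (median -1.35). In NUPR1 cells, 0 of 15 were lower and 1, IFIT2, was higher (median 0.18). The IFIT2 call was narrow (adjusted p = 0.049, edgeR), at 30.7 against 2.52, 25.7 against 3.16 and 58.4 against 44.5 CPM. In control 1, 1 member held 18 IFIT2 UMIs. IFI6 fell by 1.32 ± 0.10 in LCN15 cells and by 1.61 ± 0.10 in trypsinogen cells, and its difference in NUPR1 cells was -0.11 ± 0.11 (adjusted p = 0.73, edgeR).

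Proliferation genes were higher in 8 of 23 in LCN15 cells (median 0.47) and in 12 of 24 in trypsinogen cells (median 0.69), and in NUPR1 cells 3 of 21 were lower (median -0.65). TOP2A, a topoisomerase of dividing cells, rose by 0.95 ± 0.13 and by 1.02 ± 0.13 in the first and second sets, and its difference in NUPR1 cells was -0.59 ± 0.24 (adjusted p = 0.26). CENPF, a centromere protein, rose by 0.54 ± 0.17 and 1.00 ± 0.19 and fell by 1.05 ± 0.25 in NUPR1 cells.

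ATF4 and amino acid response genes were higher in 9 of 26 and lower in 0 in NUPR1 cells (median 0.33), against 6 higher and 3 lower in LCN15 cells and 3 higher and 1 lower in trypsinogen cells. In NUPR1 cells, the stress factor DDIT3 rose by 0.63 ± 0.11 (adjusted p = 0.0023), the amino acid transporter SLC7A5 by 0.65 ± 0.14, the pseudokinase TRIB3 by 0.49 ± 0.10 and GDF15 by 0.93 ± 0.11. DDIT3 differed by -0.11 ± 0.12 in LCN15 cells and -0.10 ± 0.13 in trypsinogen cells, with adjusted p-values of 0.69 and 0.75. TFF3 rose by 1.88 ± 0.08 in trypsinogen cells and by 1.06 ± 0.08 in LCN15 cells, and was at -0.42 ± 0.13 in NUPR1 cells (adjusted p = 0.087). The transcription factor HES6 rose by 1.71 ± 0.14 in trypsinogen cells and fell by 1.01 ± 0.26 in NUPR1 cells.

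Enteroendocrine genes, lower in 2 of 4 in members, were higher in 3 of 5 in trypsinogen cells (GCG, SCG2 and SST, median 2.05), lower in 2 of 3 in LCN15 cells and lower in 3 of 3 in NUPR1 cells. SST in trypsinogen cells was at 47.9 against 10.5, 2.23 against 40.0 and 208 against 9.66 CPM, so control 2 went the other way. These values rest on very few cells. Among all HT29 cells, SST UMIs were seen in 0 members and 3 cells of the rest in control 1. In LPS 1 they were seen in 2 members and 4 cells of the rest, 1 of which held 74 UMIs.

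The genes with the largest rises in members were also followed in these sets. OR51E1 rose by 3.05 ± 0.29 in LCN15 cells and 1.76 ± 0.33 in trypsinogen cells, and was at -0.74 ± 0.45 in NUPR1 cells (adjusted p = 0.52, edgeR). IGFBP2 rose by 2.02 ± 0.11 and 1.37 ± 0.11 and was at -0.38 ± 0.18 in NUPR1 cells (adjusted p = 0.37). EGFL7 rose in each set, by 1.07 ± 0.16, 1.07 ± 0.18 and 0.94 ± 0.17, and GABRA2 by 1.59 ± 0.18, 1.02 ± 0.21 and 1.05 ± 0.18. SPRR1B was lower in each, at -3.23 ± 0.18, -2.44 ± 0.16 and -2.20 ± 0.15.

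**Figure D5:**
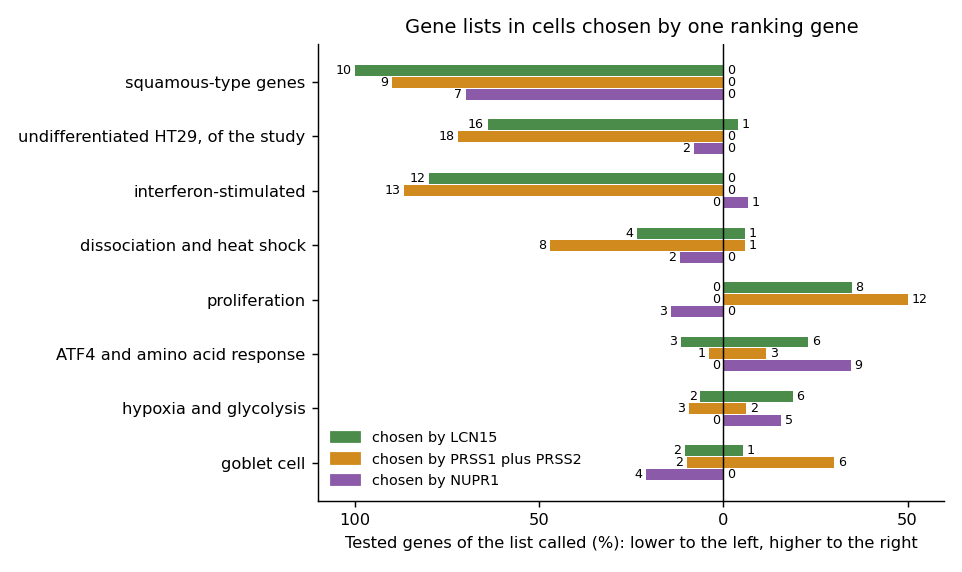
Share of the tested genes of 8 lists (horizontal axis, %) called lower (to the left) or higher (to the right) in cells chosen by LCN15, by PRSS1 plus PRSS2 or by NUPR1 against their own rest, with gene numbers at the bars. Squamous-type genes are lower in 10, 9 and 7 genes, and proliferation genes higher in 8, 12 and 0.

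Each ranking gene was also measured in the sets chosen by the others. LCN15 rose by 2.53 ± 0.10 in trypsinogen cells, at 578, 630 and 694 CPM against 106, 83.8 and 156 CPM, and was at 0.10 ± 0.12 in NUPR1 cells (adjusted p = 0.79). PRSS1 rose by 2.55 ± 0.13 and PRSS2 by 2.90 ± 0.10 in LCN15 cells. In NUPR1 cells PRSS2 was higher in all 3 libraries, at 229 against 176, 166 against 73.7 and 166 against 92.3 CPM (0.85 ± 0.13, adjusted p = 0.00060, edgeR). PRSS1 was also called higher there (1.42 ± 0.27, adjusted p = 0.0056), at 208 against 68.5 and 151 against 32.1 CPM in the controls and 30.0 against 51.5 CPM in LPS 1. NUPR1 was called higher in LCN15 cells (0.63 ± 0.12), at 617 CPM against 283 in control 2, 104 against 102 in control 1 and 151 against 143 in LPS 1. In PRSS1 plus PRSS2 cells it was at 58.1 against 110, 717 against 286 and 142 against 145 CPM, so only control 2 was higher there.

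Members were next compared with goblet-like HT29 cells, which passed the same gates but held 5 or more UMIs of MUC2 and FCGBP and numbered 18, 11 and 8. The goblet-like cells were picked by goblet genes. MUC5AC, TFF3, HES6 and KLK12 were lower and IGFBP2 and SNCG higher in members. Of 4615 genes tested, 35 (0.758%) were higher and 40 (0.867%) lower. MUC5AC, a gel-forming mucin of the stomach and airway, was at 41.6, 32.4 and 87.8 CPM in members against 543, 717 and 1873 CPM in goblet-like cells and fell by 4.12 ± 0.25 (adjusted p = 3.2e-49). TFF3 was at 14916, 10252 and 10536 CPM in goblet-like cells and was lower in members, with a difference of -3.38 ± 0.23. HES6 differed by -3.52 ± 0.22, the kallikreins KLK12 and KLK1 by -3.45 ± 0.31 and -2.66 ± 0.37, and the water channel AQP3 by -2.45 ± 0.43.

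IGFBP2 rose by 3.01 ± 0.39 over goblet-like cells, and SNCG, gamma-synuclein, by 2.48 ± 0.36. PPP1R1B had no UMI in goblet-like cells and was at least 4.37-fold higher in members, against a floor of 3 UMIs over the goblet-like cells. The matrix proteins ECM1 and HSPG2, SFTA2, the sterol regulator SREBF2 and the protease inhibitor SERPINE2 were higher by 2.59 to 2.96, and SLC1A7 and TMEM61 differed by -2.59 and -2.52. PPP1R1B did not pass without control 1, HSPG2, SREBF2 and SERPINE2 did not pass without control 1 or without control 2, and ECM1 and SFTA2 did not pass whichever library was left out. SLC1A7 did not pass without control 2 or LPS 1, nor TMEM61 without control 1 or LPS 1. Adjusted p-values in these fits lay between 0.088 and 0.71.

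Last, the difference between members and rest was compared between LPS 1 and the controls, on the assumption that LPS cultures vary as controls do and with 1 residual degree of freedom. Of 9877 genes, 4 (0.0405%) were called, and DESeq2 called 0, with 411 and 16 genes at an unadjusted p under 0.05. APOA2, an apolipoprotein, was at 63.2 and 68.0 CPM in control members against 210 and 165 CPM in their rest, and at 235 against 176 CPM in LPS 1. The other 3 genes are interferon-induced and had a negative difference. IFIT1 was at 28.3 and 89.0 CPM in control members against at most 18.1 CPM in the rest, and at 43.0 against 101 CPM in LPS 1. OASL was at 21.6 and 87.4 CPM against 7.51 and 6.58 CPM in the controls and at 8.96 against 23.6 CPM in LPS 1. IFIT3 was at 26.6 and 59.9 CPM against 7.51 and 7.37 CPM in the controls and nearly equal in LPS 1, at 62.7 against 63.7 CPM. In control 2, 1 member held 34 of the 54 OASL UMIs, 1 held 24 of the 37 IFIT3 UMIs and 1 held 28 of the 55 IFIT1 UMIs. The members' share of kept cells was 2.06%, 2.83% and 2.46% and follows from the fixed 15%.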

How the data were processed

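Single-cell UMI counts of 3 libraries were analysed. The UMI counts per gene and barcode were deposited by the authors as filtered Cell Ranger matrices (header version 3.1.0, GRCh38; the study's methods name a later version). Sample groups came from the submitters' labels. Barcodes were selected and ranked as described in the report, mitochondrial genes and the genes that chose the cells were left out of each test (a ranking gene was tested only among cells chosen without it), and raw counts were summed per library and population, giving 6 sums per comparison. These were tested with edgeR 4.0.16 in R 4.3.3 (TMM, filterByExpr, quasi-likelihood F test, library as a block because each library holds both populations, Benjamini-Hochberg adjustment over all tested genes) and DESeq2 1.42.0 as an alternative. Members against the rest left 2 residual degrees of freedom, and edgeR draws its estimate of spread partly from all tested genes. Very small p-values therefore do not stand for many replicates. Fold changes are on the log2 scale with SE. The SE was derived from the test, as the size of the fold change divided by the square root of the F statistic. The code was tested on simulated data.

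Named genes were the 15 largest rises and 15 largest falls past an adjusted p of 0.05, in the same direction in 3 of 3 libraries and at a mean of 20 CPM or more in the higher population (8 each for goblet-like cells, up to 6 for LPS, up to 4 per list), besides the ranking genes, gate genes and CA9 as values. A gene that met this rule is not reported here. IFI6, TOP2A, CENPF, DDIT3, SLC7A5, TRIB3, SCG2 and CPE were named after their values were seen. So were the genes named as having no UMIs and the genes followed in the cells chosen by 1 gene. The members, the 20 gene lists and the markers were chosen with earlier results of these data known. Doublets were not removed, since the rule has no such step and Scrublet's own cutoff marked 0, 0 and 1 cells; leaving out the 6% of barcodes with the highest score is an alternative. Alternatives also changed scaling, filtering, thinning to 1500 UMIs, the cutoff, the ranking, the cell minimums, the APOA1 and APOC3 limit, cycling cells and the libraries. Floors (3 UMIs) cover counting error only.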

Additional observations from a re-analysis of the deposited data

Results flagged for a closer look

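The genes APOA2, IFIT1, OASL and IFIT3 differed between LPS 1 and the controls in how far members lay from the rest, by edgeR's interaction term. The difference of the 2 effects, LPS minus controls on the log2 scale, was 1.90 ± 0.27 for APOA2 (adjusted p = 0.0045), -3.08 ± 0.50 for IFIT1 (adjusted p = 0.014), -4.36 ± 0.72 for OASL (adjusted p = 0.014) and -2.58 ± 0.44 for IFIT3 (adjusted p = 0.014). The LPS side is 1 library. IFIT3 UMIs came from 1, 5 and 4 members of control 1, control 2 and LPS 1, and OASL UMIs from 3, 6 and 4. All 4 calls were lost with DESeq2, with members ranked on one part and measured on the other part of each cell's UMIs, and with the limit on APOA1 and APOC3 at 0.1%. With 1 or 2 libraries per group, no search for single outlying samples applied.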

How the results depend on the processing

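Of 209 values of the main results under the alternatives, 154 kept their direction and call or a similar count. Genes higher and lower in members than in the rest numbered 96 and 69 with DESeq2, 74 and 100 with no replicate block for the library, 118 and 89 with every cell thinned to 1500 UMIs, 434 and 414 with the top 25%, 153 and 132 with members ranked on one part and measured on the other part of each cell's UMIs, and 148 to 175 and 117 to 180 with 1 library left out. The labels' numbers do not pair the samples, since both populations come from the same library, which is the block. Against goblet-like cells, higher genes numbered 9 with DESeq2, 7 thinned, 56 with the top 10%, 16 with split UMIs and 12 to 30 with 1 library left out. Lower genes numbered 22 with DESeq2, 23 with no filter on low counts, 17 thinned and 24 to 37 with 1 library left out. With goblet-like cells taken under no other gate, an alternative chosen after seeing the data, there were 273 and 264.

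The difference between LPS and controls gave 0 genes with DESeq2, thinned or with APOA1 plus APOC3 under 0.1%, 1 with split UMIs, 7 with the top 25% or cycling cells left out, 10 with the top 10%, 11 ranked on thinned counts or by mean rank, 13 with no TMM or no filter, and 14 with higher minimums of UMIs and genes per cell. NUPR1, with cells chosen without it, was -0.029 with DESeq2, 0.36 with no filter, 0.86 thinned, 0.52 with split UMIs, 0.46 by mean rank, 0.60 with the higher minimums and -0.75 to 0.80 with 1 library left out. With 1 library left out, LCN15 was 1.59 to 1.97, PRSS1 5.03 to 5.36 and PRSS2 4.22 to 4.86, and with both trypsinogens left out of the choice 2.43 to 3.53 and 3.02 to 3.56. Cells chosen by 1 gene gave 263 to 350 higher and 327 to 360 lower genes for LCN15, 94 to 207 and 72 to 110 for NUPR1, and 253 to 310 and 275 to 381 for PRSS1 plus PRSS2, which at the top 10% gave 227 and 308. The lowest LCN15 and NUPR1 counts of higher genes came without LPS 1, and the lowest trypsinogen counts without control 1. SST turned to 0.16 with the top 25% and 0.96 with split UMIs, and APOA2 to -0.34 with the top 25%. Of the named genes, 21 of 30 kept their call against the rest in every alternative that gave them an adjusted p-value. Against goblet-like cells, 8 of 16 did so. Alternatives without such a value for a gene were not counted, which left 15 to 17 per gene against the rest. The causes were not tested. With 105 to 150 members a library, genes under about 20 CPM rest on few UMIs.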
